A study of Mus musculus with 46 samples.

Results

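The liver response to zinc oxide (ZnO) particle sunscreens was compared between pregnant and virgin SKH:QS mice, a hairless laboratory stock. It was read from 34 of the 46 arrays of the study, 1 mouse per array: 5 pregnant mice given micrometre-sized particles (micro ZnO), 6 pregnant mice given nanoparticles (nano ZnO) and 5 untreated pregnant mice, then 6 micro ZnO, 6 nano ZnO and 6 untreated virgin mice. The other 12 arrays came from mice given the particle-free sunscreen base (formulation), 6 pregnant and 6 virgin. The particles were made from the stable isotope 68Zn and differed in size. The backs of the mice received sunscreen in 6 applications during 4 days, and livers were taken on day 5, at about day 17 of gestation in the pregnant mice. All mice were housed singly under 14 h of light and 10 h of dark and were killed by cervical dislocation after Xylase and ketamine. The protocol lists collars against licking for all mice, with no separate word on the untreated ones. Pregnant and virgin mice belonged to 2 separate experiments, so pregnancy and experiment cannot be told apart.

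A ZnO response is the mean of the micro and nano ZnO arms minus untreated, on the log2 scale. The quantity compared is the response of pregnant mice minus the response of virgin mice, from a limma model of all 8 groups. A positive difference can therefore stand for a larger rise or for a smaller fall in pregnant mice.

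The liver takes up zinc through ZIP importers (Slc39a genes), exports it through ZnT carriers (Slc30a genes) and stores it bound to metallothioneins, whose genes are switched on by zinc through the transcription factor MTF-1 and by glucocorticoids and inflammatory cytokines. In an acute-phase response, cytokines such as interleukin-6 make hepatocytes secrete serum amyloid A and orosomucoid. Many liver genes also differ between males and females, under the control of growth hormone pulses, and many follow the circadian clock. Late pregnancy itself changes liver metabolism, bile acid handling and hormone exposure.

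The values are log2 intensities. Array medians lay between 3.98 and 4.12 in the pregnant experiment (22 arrays with formulation) and between 4.66 and 4.90 in the virgin experiment (24 arrays), so levels are read within an experiment and only responses are set across experiments. Correlations between arrays of an experiment were 0.973 to 0.995 in the pregnant and 0.974 to 0.994 in the virgin experiment. Replicates 3 and 4 of the pregnant micro ZnO arm stood apart on the first principal component of the pregnant arrays, at 47.1 and 31.2, against -13.2 to -3.20 for the other replicates of that arm. Values without these 2 arrays stand beside the counts of calls for the difference and for the pregnant response, and beside the lists of acute-phase, neutrophil, macrophage and interferon genes. Albumin lay at percentile 99.98 of the array in all 4 sets of mice. The labels call the mice biological replicates.

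The liver responses to ZnO sunscreen differed between pregnant and virgin mice in few genes. Nearly all of these had a called response in virgin mice and no called response in pregnant mice. Of 23410 probe sets tested, 15 were called (limma, adjusted p under 0.05), 12 with a positive and 3 with a negative difference. They are 0.0641% of the probe sets and stand for 14 named genes, 0.0702% of 19938 genes, and 1 probe set shared by several histone genes. Of the 14 genes, 1, Cyp2a22, was also called for the pregnant response, where 0.466% of all genes were, and 14 for the virgin response, where 9.15% were. The sign was opposite in 12 of them, and the response was larger in size in virgin mice in 11. A missing call is not a missing response. The adjusted threshold is easier to pass where more probe sets are called, 2163 for the virgin against 110 for the pregnant response. For Slc39a4 and Ly6e the pregnant responses were -0.34 ± 0.10 and 0.46 ± 0.12 (SE) without a call. At an unadjusted p under 0.05, 1871 probe sets (7.99%) differed. Without the pregnant micro ZnO replicates 3 and 4, 36 probe sets were called, 27 positive and 9 negative, with all 15 among them.

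**Figure D1:**
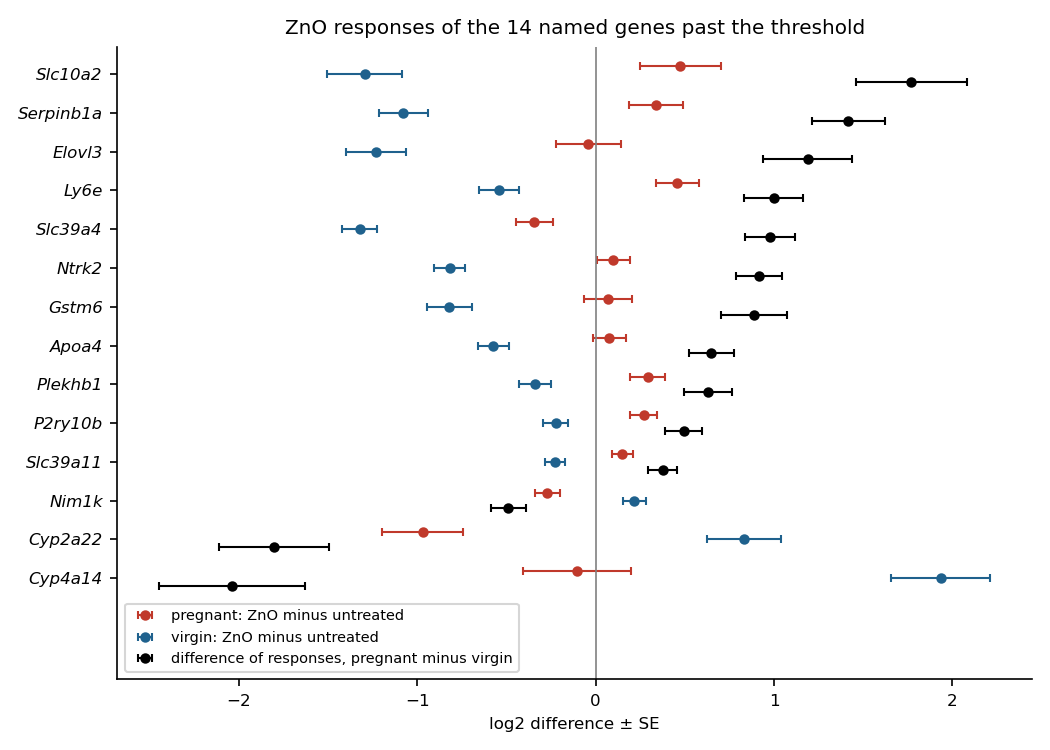
Log2 differences with their SE for the 14 named genes whose ZnO response differed between pregnant and virgin mice: the pregnant response (red), the virgin response (blue) and the difference of the 2 (black). The blue points of Slc10a2, Slc39a4, Elovl3 and Serpinb1a lie below -1, that of Cyp4a14 lies near 2, and most red points lie within 0.5 of zero.

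Zinc handling genes were among those that differed. Slc39a4 encodes ZIP4, a zinc importer of the plasma membrane. It had a log2 signal of 5.99 at the lowest, 6.23 at the median and 6.60 at the highest in the 11 pregnant ZnO mice, against 6.85, 6.27, 6.52, 7.002 and 6.27 in the untreated pregnant mice. In virgin mice it had 6.33, 6.73 and 6.93 at the lowest, median and highest of 12 ZnO mice, against 7.75, 7.98 and 8.22 in 6 untreated mice. The pregnant groups overlapped, with 7 of 11 ZnO mice below every untreated one, while all 12 virgin ZnO mice were below every untreated virgin mouse. The pregnant response was -0.34 (95% interval -0.55 to -0.14) and did not pass the test (limma adjusted p = 0.114). Slc39a4 fell 2.50-fold in virgin mice (log2 difference -1.32, adjusted p = 2.215e-13). The difference between the responses was 0.98 ± 0.14 (SE, adjusted p = 0.000109). In these bulk livers, fewer cells of a type and less RNA per cell cannot be told apart, here and below.

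Slc39a11, which encodes the zinc transporter ZIP11, had a log2 signal of 6.70, 6.87 and 7.002 at the lowest, median and highest of the pregnant ZnO mice, against 6.54, 6.76, 6.79, 6.91 and 6.58 in the untreated pregnant mice. The virgin ZnO mice had 6.86, 7.03 and 7.21, against 7.21, 7.24 and 7.36 in the untreated virgin mice. The pregnant groups overlapped, and every virgin ZnO mouse was below every untreated one, by little. The pregnant response was 0.15 (limma adjusted p = 0.249), the virgin response -0.23 (adjusted p = 0.00747) and their difference 0.38 ± 0.08 (adjusted p = 0.0401).

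The metallothioneins had no called response in pregnant mice and rose in virgin mice. Mt1 had 12.03, 12.20 and 12.49 at the lowest, median and highest of the pregnant ZnO mice, against 11.38, 12.17, 11.89, 11.30 and 11.88 in the untreated pregnant mice. It had 11.48, 11.91 and 12.51 in the virgin ZnO mice, against 9.61, 10.46 and 11.12 in the untreated virgin mice. Of the pregnant ZnO mice 9 of 11 were above every untreated one, and of the virgin ZnO mice 12 of 12. Mt1 had a pregnant response of 0.51 (limma adjusted p = 0.131) and rose by 1.46 in virgin mice (adjusted p = 5.744e-09). The difference of -0.95 ± 0.22 (95% interval -1.39 to -0.51) missed the threshold (adjusted p = 0.0634). Mt2 had a pregnant response of 0.76 (adjusted p = 0.117), rose by 1.62 in virgin mice (adjusted p = 2.529e-06), and differed by -0.86 ± 0.31 (adjusted p = 0.462).

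Of 24 measured zinc handling genes, 2 had a called difference, both positive, where 0.0552% of all genes had one. In pregnant mice 0 were called, where 0.466% of all genes were, and 8 had an unadjusted p under 0.05 (2698 of all 19938 genes). In virgin mice 5 rose and 4 fell, where 4.15% of all genes rose and 5.01% fell. The median difference over the list was 0.02, against -0.01 over all genes. Slc30a1, the zinc exporter, had a pregnant response of 0.22 and rose by 0.44 in virgin mice (limma adjusted p = 0.00745). Slc39a14, an importer of zinc, iron and manganese that inflammation induces in liver, had a response of 0.52 in pregnant mice (adjusted p = 0.163) and rose by 0.49 in virgin mice (adjusted p = 0.0472). Its difference was 0.03 (95% interval -0.44 to 0.51).

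Promoters were looked up in RefSeq for Mt1, Mt2, Slc39a4 and Slc39a11 alone among the zinc genes. They are shown because metallothionein promoters hold metal response elements, the sites that MTF-1 binds. Each is a window of 300 bases, from 250 before to 50 after the start, on build GRCm38.p6, printed 5′ to 3′ on the gene's strand. Capitals mark matches to the core letters TGCACNC or TGCGCNC on either strand. The set of RefSeq promoters used here held no entry for Slc39a4, so its promoter was not printed. The windows lie at chr8:94178839-94179138 (plus strand) for Mt1 and chr8:94172368-94172667 (plus strand) for Mt2. Those of Slc39a11 lie at chr11:113650043-113650342 and chr11:113565766-113566065 (minus strand), for its different transcript starts.
Mt1: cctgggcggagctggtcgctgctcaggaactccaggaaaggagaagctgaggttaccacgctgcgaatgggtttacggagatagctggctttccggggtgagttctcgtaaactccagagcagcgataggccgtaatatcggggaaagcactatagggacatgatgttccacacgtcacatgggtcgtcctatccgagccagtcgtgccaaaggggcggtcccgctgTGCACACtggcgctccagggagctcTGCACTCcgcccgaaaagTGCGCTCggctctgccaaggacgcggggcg
Mt2: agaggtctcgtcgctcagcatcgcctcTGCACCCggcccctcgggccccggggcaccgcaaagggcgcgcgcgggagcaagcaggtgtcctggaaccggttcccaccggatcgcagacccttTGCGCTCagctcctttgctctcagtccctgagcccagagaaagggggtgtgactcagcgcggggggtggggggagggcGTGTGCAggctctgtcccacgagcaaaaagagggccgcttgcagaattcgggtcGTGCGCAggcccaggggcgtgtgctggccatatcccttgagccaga
Slc39a11, first window: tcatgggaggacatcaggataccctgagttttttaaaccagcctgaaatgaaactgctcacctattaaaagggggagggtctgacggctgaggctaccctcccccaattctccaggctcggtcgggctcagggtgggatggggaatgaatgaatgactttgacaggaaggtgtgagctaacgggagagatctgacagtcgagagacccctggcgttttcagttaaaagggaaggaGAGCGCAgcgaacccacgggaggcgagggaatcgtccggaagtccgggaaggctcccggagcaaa
Slc39a11, second window: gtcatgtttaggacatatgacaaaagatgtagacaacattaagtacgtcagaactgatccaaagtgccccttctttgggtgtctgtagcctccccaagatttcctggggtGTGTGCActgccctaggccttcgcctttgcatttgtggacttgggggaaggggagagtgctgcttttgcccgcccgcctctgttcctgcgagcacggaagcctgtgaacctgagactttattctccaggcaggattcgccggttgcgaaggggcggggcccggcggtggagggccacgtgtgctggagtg
The cores matched 3 times in the Mt1 window, 4 times in the Mt2 window and 1 time in each Slc39a11 window. Of 32851 promoter windows of the same length, 25.7% held at least 1 match, 1.97% at least 3 and 0.518% at least 4. A single match, as in Slc39a11, is thus common among promoters. These matches describe letters in the windows and are not measured sites.

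Ntrk2, Serpinb1a and Slc10a2 had no called response in pregnant mice and fell in virgin mice. Ntrk2, the TrkB receptor for brain-derived neurotrophic factor, had 3.31, 3.49 and 3.71 at the lowest, median and highest of the pregnant ZnO mice, against 3.40, 3.33, 3.31, 3.52 and 3.39 in the untreated pregnant mice. With ZnO, virgin mice had 3.98, 4.41 and 4.72, against 4.86, 5.19 and 5.65 in the untreated virgin mice. The pregnant groups lay on top of each other, and the virgin groups did not overlap. Ntrk2 had a pregnant response of 0.10 (95% interval -0.09 to 0.29), fell 1.76-fold in virgin mice (-0.82, limma adjusted p = 1.856e-08), and differed by 0.92 ± 0.13 (adjusted p = 0.000109). The files carry no detection calls. In the pregnant mice its signal lay at percentile 31.9 of the array with ZnO and 30.9 untreated, so how much room it had to fall there was not tested.

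Serpinb1a, an inhibitor of neutrophil serine proteases, had 3.62, 4.10 and 4.60 at the lowest, median and highest of the pregnant ZnO mice, against 3.83, 3.18, 4.10, 3.87 and 3.90 in the untreated pregnant mice. Values in virgin ZnO mice were 4.04, 4.62 and 4.88, against 5.17, 5.67 and 6.29 untreated. The pregnant groups overlapped, and all virgin ZnO mice were below every untreated virgin mouse. Serpinb1a had a pregnant response of 0.34 (limma adjusted p = 0.307), fell by 1.08 in virgin mice (adjusted p = 1.987e-06), and differed by 1.42 ± 0.21 (adjusted p = 0.000109).

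Slc10a2, the sodium-dependent bile acid transporter known from ileum and bile ducts, had 4.64, 5.65 and 6.01 at the lowest, median and highest of the pregnant ZnO mice, against 5.57, 5.20, 5.04, 3.91 and 5.56 in the untreated pregnant mice. Virgin mice given ZnO had 3.63, 4.32 and 5.06, against 5.15, 5.68 and 6.38 untreated. Of the pregnant ZnO mice 6 of 11 were above every untreated one, and the virgin groups did not overlap, with ZnO lower. The pregnant response was 0.47 (limma adjusted p = 0.341), the virgin response -1.30 (adjusted p = 0.000128) and the difference 1.77 ± 0.31 (adjusted p = 0.00344).

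Ly6e, an interferon-inducible surface protein, had 9.87, 10.20 and 10.76 at the lowest, median and highest of the pregnant ZnO mice, against 9.94, 9.86, 9.90, 9.34 and 9.86 in the untreated pregnant mice. In the virgin experiment the ZnO mice had 9.25, 9.51 and 9.64, against 9.73, 10.08 and 10.32 untreated. Of the pregnant ZnO mice 9 of 11 were above every untreated one, whereas the virgin ZnO mice were all below the untreated ones. The pregnant response of 0.46 missed the threshold (limma adjusted p = 0.0628). Ly6e fell by 0.54 in virgin mice (adjusted p = 0.00203), and the difference was 1.00 ± 0.16 (adjusted p = 0.00152).

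**Figure D2:**
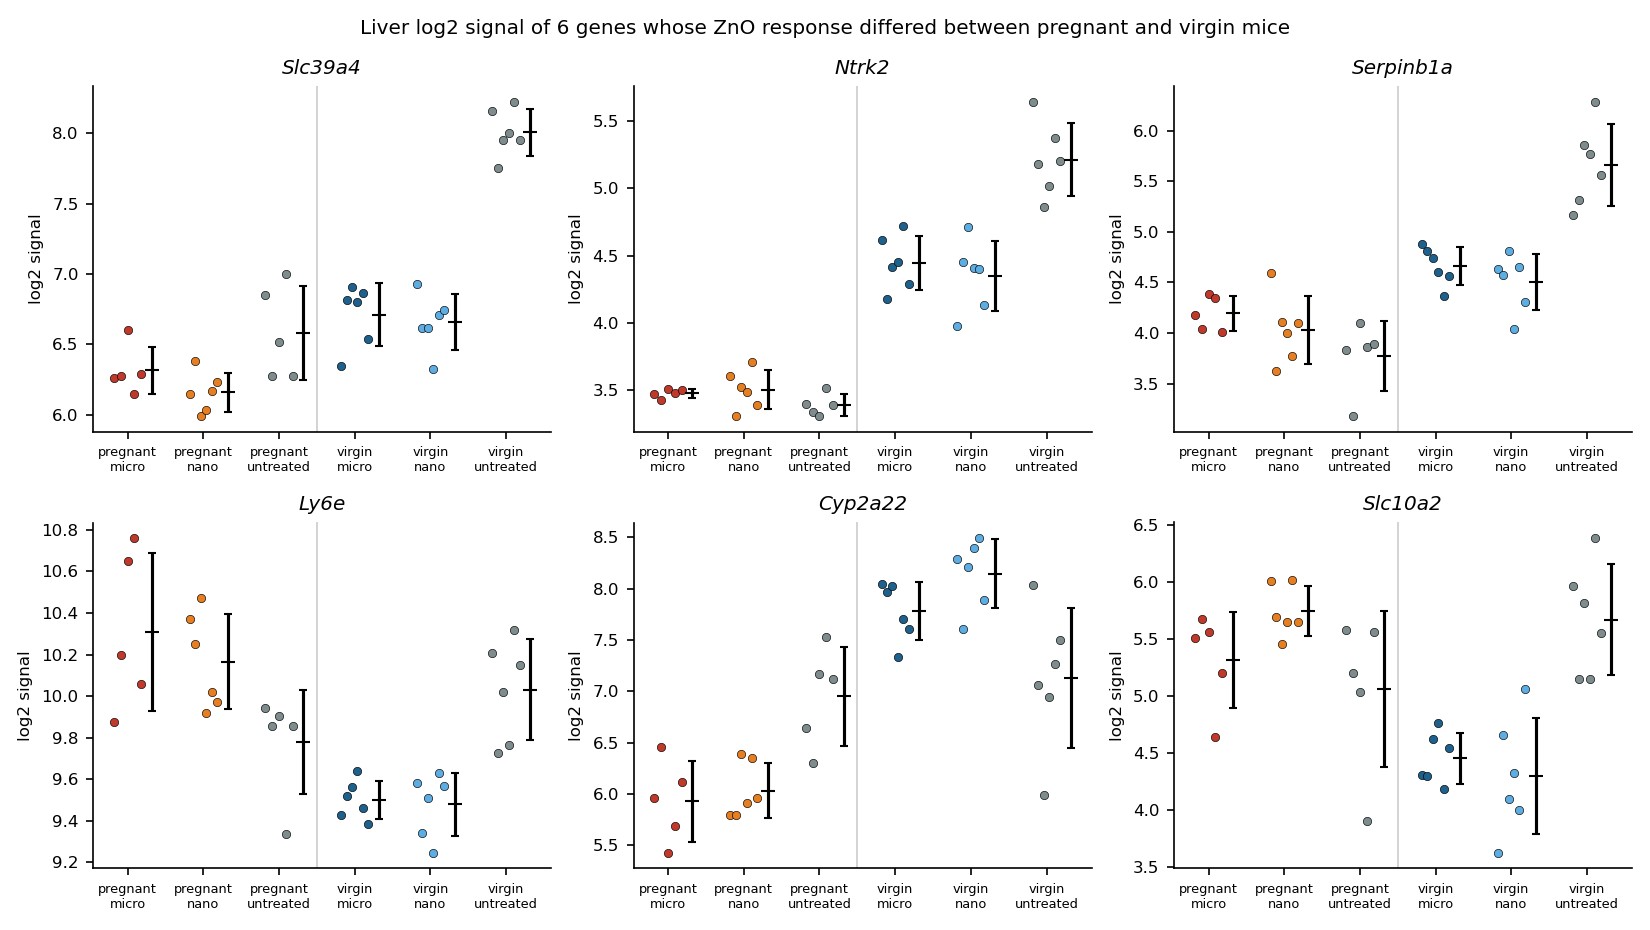
Log2 signal per mouse of Slc39a4, Ntrk2, Serpinb1a, Ly6e, Cyp2a22 and Slc10a2, 1 point per array, with the mean and SD of each arm as a bar; micro ZnO, nano ZnO and untreated arms of pregnant mice are left of the grey line and those of virgin mice right of it. In the Cyp2a22 panel most pregnant ZnO points lie below the untreated ones and most virgin ZnO points lie high, and in the other panels all virgin ZnO points lie below the untreated ones.

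Cyp2a22 was the gene called in both experiments in opposite directions. This cytochrome P450 of the mouse Cyp2a family had 5.43, 5.96 and 6.45 at the lowest, median and highest of the pregnant ZnO mice, against 6.65, 6.30, 7.17, 7.53 and 7.12 in the untreated pregnant mice. The virgin ZnO mice had 7.33, 7.998 and 8.49, against 5.99, 7.16 and 8.04 untreated. Of the pregnant ZnO mice 8 of 11 were below every untreated one, and 5 of 12 virgin ZnO mice were above every untreated one, so both pairs of groups overlapped. It fell by 0.97 in pregnant mice (± 0.23, limma adjusted p = 0.0334) and rose by 0.83 in virgin mice (± 0.21, adjusted p = 0.0106), a difference of -1.80 ± 0.31 (adjusted p = 0.00234).

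Cyp4a14, a fatty acid omega-hydroxylase and a target of the receptor PPARA, had 2.65, 2.90 and 3.15 at the lowest, median and highest of the pregnant ZnO mice, against 2.86, 3.08, 3.24, 3.22 and 2.70 in the untreated pregnant mice. With ZnO, virgin mice had 7.84, 8.998 and 10.73, against 6.27, 7.31 and 8.72 untreated. Cyp4a14 had a pregnant response of -0.10 (95% interval -0.71 to 0.50) and rose 3.82-fold in virgin mice (1.93, limma adjusted p = 1.291e-05), a difference of -2.04 ± 0.41 (adjusted p = 0.0270). Its signal in pregnant mice lay at percentile 23.0 of the array with ZnO and at percentile 25.1 untreated. In virgin mice it lay at percentile 94.3 with ZnO and 83.9 untreated. Cyp4a14 was thus dim in the pregnant experiment with or without sunscreen.

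Elovl3, an elongase of very long chain fatty acids, had 2.57, 3.07 and 3.80 at the lowest, median and highest of the pregnant ZnO mice, against 3.11, 3.14, 3.66, 2.81 and 2.87 in the untreated pregnant mice. Values in virgin ZnO mice were 3.77, 4.37 and 4.81, all below the 4.90, 5.50 and 6.48 of the untreated virgin mice. Elovl3 had a pregnant response of -0.04, fell by 1.23 in virgin mice (limma adjusted p = 5.438e-06), and differed by 1.19 ± 0.25 (adjusted p = 0.0373). It too was dim in pregnant mice, at percentile 24.6 with ZnO and 26.0 untreated.

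Apoa4, an apolipoprotein, and Gstm6, a glutathione S-transferase, had mid to high signals in both experiments. Apoa4 had 10.22, 10.51 and 10.71 at the lowest, median and highest of the pregnant ZnO mice, against 10.41, 10.21, 10.63, 10.55 and 10.10 untreated, and 10.28, 10.69 and 10.89 in the virgin ZnO mice, against 11.07, 11.21 and 11.44 untreated. Gstm6 had 5.83, 6.56 and 6.97 in the pregnant ZnO mice, against 6.59, 6.48, 6.75, 5.84 and 6.41 untreated, and 6.48, 6.999 and 7.33 in the virgin ZnO mice, against 7.40, 7.76 and 7.96 untreated. Their pregnant responses were 0.08 and 0.07, neither called, and both fell in virgin mice with no overlap of the groups, by 0.57 and 0.82. The difference was 0.65 ± 0.13 for Apoa4 (limma adjusted p = 0.0177) and 0.89 ± 0.19 for Gstm6 (adjusted p = 0.0373).

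The remaining named genes had small responses of opposite sign. Nim1k, an AMPK-related kinase, had responses of -0.27 in pregnant and 0.22 in virgin mice and a difference of -0.49 ± 0.10 (limma adjusted p = 0.0233). Plekhb1 had 0.29 and -0.34, and a difference of 0.63 ± 0.13 (adjusted p = 0.0401). P2ry10b had 0.27 and -0.22, and a difference of 0.49 ± 0.10 (adjusted p = 0.0373), at signals from 1.68 to 2.91 in all 4 sets of mice, among the dimmest of the array. In these 3 genes the pregnant response did not pass the test and the virgin response did. For Nim1k and P2ry10b the pregnant response was the larger in size, at -0.27 and 0.27 against 0.22 and -0.22 (all ± 0.07, SE). The adjusted threshold is easier to pass where more probe sets are called, so these calls do not mean a response in virgin mice alone.

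Slc39a4, Ntrk2, Serpinb1a, Slc10a2, Ly6e and Cyp2a22 kept their call when each of the 34 arrays was left out in turn. Plekhb1 lost it in 19 of those fits, Slc39a11 in 17, Elovl3 in 14, Gstm6 in 12, P2ry10b in 9, Cyp4a14 in 4, Nim1k in 3 and Apoa4 in 2.

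The sunscreen base alone is set beside ZnO here as a description, since both are measured against the same untreated arrays and the genes were chosen for their ZnO value. The difference of responses was 0.98 with ZnO and 0.54 with formulation for Slc39a4, 0.38 and 0.43 for Slc39a11, 0.92 and 0.66 for Ntrk2, 1.42 and 0.47 for Serpinb1a, 1.77 and 1.73 for Slc10a2, 1.00 and 0.49 for Ly6e, and -1.80 and -1.34 for Cyp2a22. It was -2.04 with ZnO and -0.69 with formulation for Cyp4a14, 1.19 and 0.82 for Elovl3, 0.89 and 0.72 for Gstm6, 0.65 and 0.71 for Apoa4, -0.49 and -0.34 for Nim1k, 0.63 and 0.57 for Plekhb1, and 0.49 and 0.11 for P2ry10b. For Mt1 it was -0.95 with ZnO and -1.20 with formulation. Set against formulation in place of untreated, the particle response differed between pregnant and virgin mice for Serpinb1a by 0.94 ± 0.20 (limma adjusted p = 0.0306), and the other 13 named genes were not called, where 0.191% of all genes were. For Slc39a4 that difference was 0.43 (95% interval 0.16 to 0.71, adjusted p = 0.147) and for Slc10a2 0.04 (-0.57 to 0.64).

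Acute-phase genes rose in both experiments, and as a list they were also high with formulation, which holds no particles. Saa1, a serum amyloid A, had 9.74, 10.36 and 12.32 at the lowest, median and highest of the pregnant ZnO mice, against 6.74, 7.02, 7.07, 5.20 and 6.95 in the untreated pregnant mice. Virgin mice given ZnO had 7.63, 8.79 and 11.05, against 4.89, 5.76 and 6.29 untreated. No ZnO mouse of either experiment overlapped the untreated mice. Saa1 rose by 4.01 ± 0.46 in pregnant mice (limma adjusted p = 3.166e-07) and by 3.37 ± 0.42 in virgin mice (adjusted p = 1.021e-06). Their difference of 0.64 did not pass the test (adjusted p = 0.832), and its 95% interval, -0.62 to 1.90, allows a difference either way.

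Orm2, an orosomucoid, had 10.54, 11.05 and 11.89 at the lowest, median and highest of the pregnant ZnO mice, against 8.08, 9.09, 7.62, 8.13 and 7.92 untreated. In the virgin experiment the ZnO mice had 10.14, 10.80 and 11.72, against 7.02, 8.27 and 8.72 untreated. Again no groups overlapped. It rose by 2.99 ± 0.25 in pregnant mice (limma adjusted p = 2.387e-11) and by 2.88 ± 0.23 in virgin mice (adjusted p = 3.004e-12), with a difference of 0.11 (95% interval -0.57 to 0.79).

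Saa3, the serum amyloid A made by macrophages as well as other cells, was the acute-phase gene with the largest difference, and it did not pass the test. The 5 pregnant micro ZnO mice had 9.25, 9.43, 12.47, 12.96 and 8.45, the 6 pregnant nano ZnO mice had 7.23, 7.80 and 8.83 at the lowest, median and highest, and the untreated pregnant mice had 5.21, 5.39, 4.86, 5.07 and 5.26. The virgin ZnO mice had 5.64, 6.69 and 8.49, against 4.94, 5.82 and 6.34 untreated. The highest values were those of replicates 3 and 4 of the pregnant micro ZnO arm. Saa3 rose by 4.06 ± 0.51 in pregnant mice (limma adjusted p = 2.218e-06), had a virgin response of 1.05 ± 0.47 (adjusted p = 0.142), and differed by 3.01 ± 0.69 (adjusted p = 0.0675).

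Of 30 measured acute-phase genes, 12 rose in pregnant mice, where 0.276% of all genes rose, and 14 in virgin mice, where 4.15% of all genes rose, with 10 of them in both and none falling. Without pregnant micro ZnO replicates 3 and 4, 10 rose in pregnant mice. None (0) had a called difference. At an unadjusted p under 0.05, 5 had a positive and 1 a negative difference (822 and 744 of all 19938 genes). The median difference was 0.20 with all arrays and 0.05 without pregnant micro ZnO replicates 3 and 4. The mean log2 signal of the list had a median of 10.19 with formulation, 9.998 with ZnO and 9.197 untreated in pregnant mice. In virgin mice these medians were 9.992, 9.809 and 9.184. With the base alone the medians were thus no lower than with ZnO, and the part of the particles in the rise was not tested. Probe sets of close relatives such as Saa1 and Saa2, the orosomucoids or the Cyp2a genes can share signal, which was not tested.

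**Figure D3:**
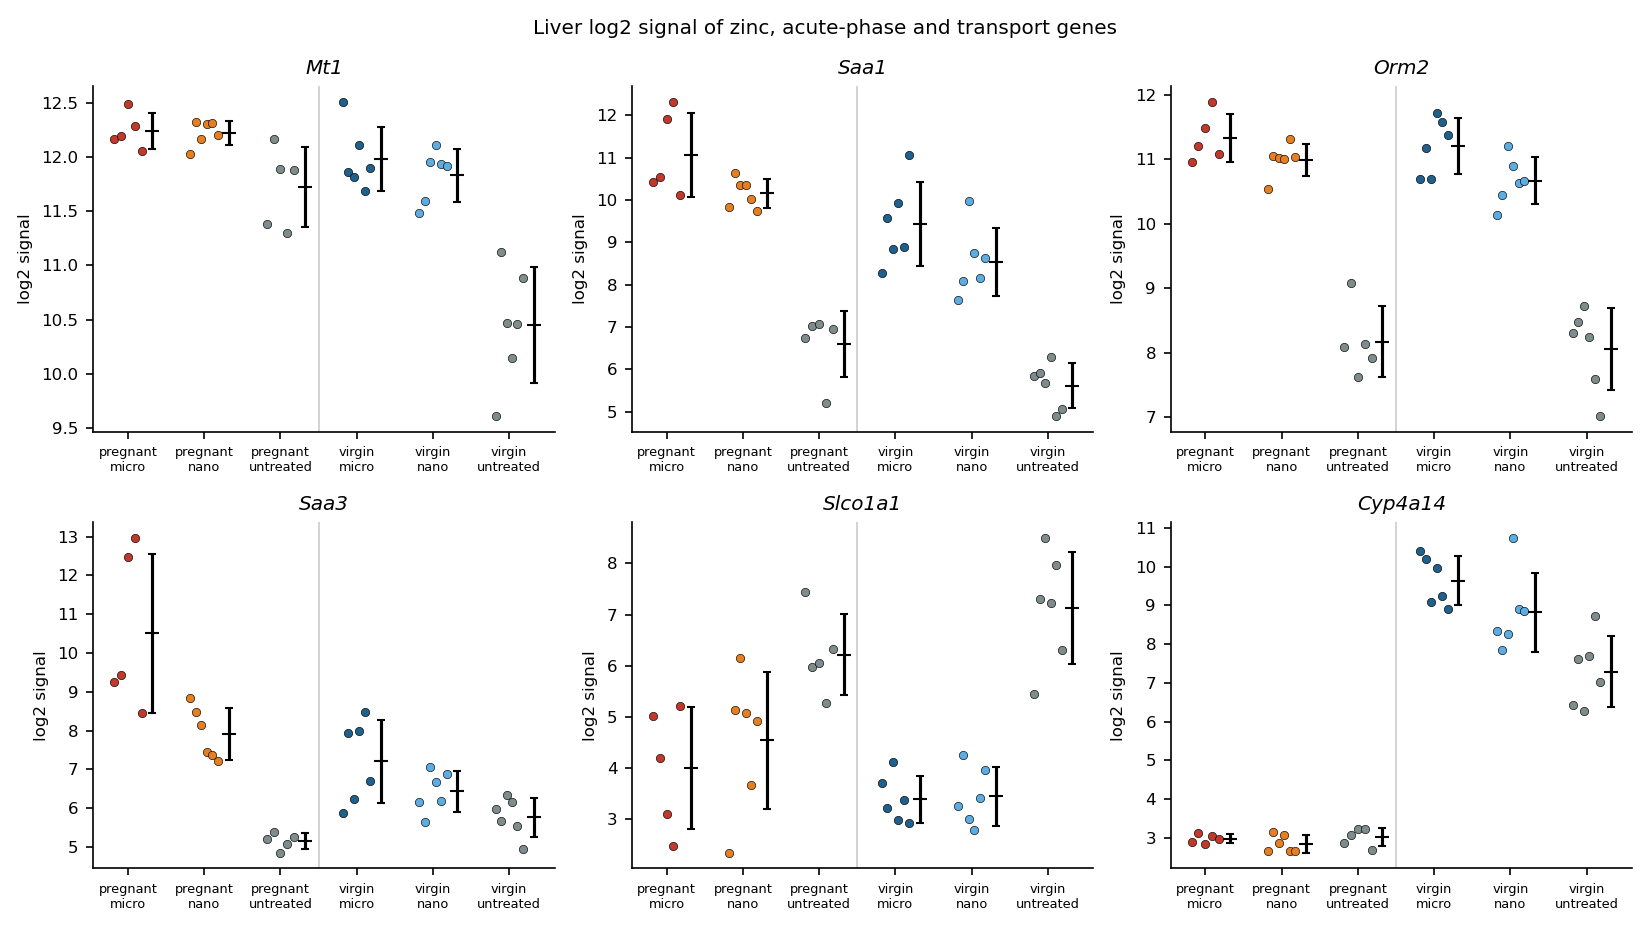
Log2 signal per mouse of Mt1, Saa1, Orm2, Saa3, Slco1a1 and Cyp4a14, 1 point per array, with the mean and SD of each arm as a bar; arms of pregnant mice are left of the grey line and those of virgin mice right of it. Saa1 and Orm2 stand above untreated with ZnO in both experiments, and Cyp4a14 stays near 3 in all pregnant mice.

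Genes with a sex bias in liver had few calls in pregnant mice and many in virgin mice, and 2 of them had a called difference. Of 20 measured male-biased genes, 2 fell in pregnant mice, Slco1a1 and Mup3 (0.191% of all genes fell), and 14 fell in virgin mice (5.01% of all genes fell). The median response was -0.18 in pregnant and -0.66 in virgin mice. For the difference, Elovl3 was called. Of the 20 genes 16 were positive (9511 of all 19938 genes), and the median was 0.54, against -0.01 over all genes. The mean log2 signal of the list ran from 5.16 to 5.79 in the pregnant ZnO mice and from 5.69 to 5.98 in the untreated pregnant mice. It ran from 6.08 to 6.48 in the virgin ZnO mice and from 6.77 to 7.62 in the untreated virgin mice, so the pregnant groups overlapped and the virgin groups were separate. Its median in pregnant mice was 5.61 with formulation, 5.66 with ZnO and 5.87 untreated, and in virgin mice 6.09, 6.31 and 6.95. With the base alone these medians were thus no higher than with ZnO, and the part of the particles was not tested.

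Slco1a1, an organic anion transporter of the male-biased set, had 2.35, 4.91 and 6.15 at the lowest, median and highest of the pregnant ZnO mice, against 7.45, 5.98, 6.06, 5.28 and 6.33 untreated. With ZnO, virgin mice had 2.78, 3.31 and 4.26, all below the 5.46, 7.27 and 8.49 of the untreated virgin mice. It fell by 1.95 in pregnant mice (limma adjusted p = 0.0244) and by 3.71 in virgin mice (adjusted p = 3.796e-08). The difference of 1.77 ± 0.60 (95% interval 0.56 to 2.97) did not pass the test (adjusted p = 0.404). Mup3, a major urinary protein, fell by 1.30 in pregnant mice (adjusted p = 0.00327) and by 1.92 in virgin mice (adjusted p = 2.073e-07), with a difference of 0.62 ± 0.33 (adjusted p = 0.648).

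Of 23 measured female-biased genes, 1 rose and 2 fell in pregnant mice, where 0.276% of all genes rose and 0.191% fell. In virgin mice 8 of them rose and 3 fell, where 4.15% of all genes rose and 5.01% fell. The gene that rose in pregnant mice was Sult1e1, the estrogen sulfotransferase, by 2.92 (limma adjusted p = 0.00105), and it rose by 1.81 in virgin mice (adjusted p = 0.0121). Those that fell were Cyp2a22 and Cyp2b9. The median response was 0.01 in pregnant and 0.35 in virgin mice, and the median difference -0.39, with Cyp2a22 the only called member. Cyp39a1, an oxysterol hydroxylase of bile acid synthesis, had a pregnant response of 0.43, rose by 1.58 in virgin mice (adjusted p = 2.529e-06), and differed by -1.16 (adjusted p = 0.164).

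Genes of the circadian clock were called in virgin mice. Of 15 measured clock output and repressor genes, 0 were called in pregnant mice (0.276% of all genes rose) and 10 rose in virgin mice (4.15% of all genes rose), with median responses of 0.47 in pregnant and 0.87 in virgin mice. Of 5 clock activators and repressors of D-box genes, 0 were called in pregnant mice (0.191% of all genes fell) and 3 fell in virgin mice (5.01% of all genes fell), with medians of -0.39 and -0.45. No gene of either list had a called difference (0), and the medians of the difference were -0.31 and 0.31. At an unadjusted p under 0.05, 4 output genes had a negative and 1 activator a positive difference (744 and 822 of all 19938 genes). Tef, a D-box activator, had a pregnant response of 0.47 and rose by 1.18 in virgin mice (limma adjusted p = 0.000174). Arntl, the core activator BMAL1, had a pregnant response of -0.91 (adjusted p = 0.202) and fell by 1.58 in virgin mice (adjusted p = 0.00104).

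A clock score per array, the mean of the output list minus the mean of the activator list centred on the experiment, gives the phase markers of each mouse. It was 0.10 ± 0.85 in the pregnant ZnO mice and -1.71, -0.05, -1.51, -1.37 and 0.71 in the untreated pregnant mice (exact permutation test, two-sided, p = 0.0994, adjusted 0.133 over 4 tests). It was 0.66 ± 0.48 in the virgin ZnO mice, from -0.09 to 1.60, and -1.05 ± 0.19 in the untreated virgin mice, from -1.31 to -0.83 (exact permutation test, p = 0.000108, adjusted 0.000431). The pregnant groups overlapped across most of their range and the virgin groups were separate. The labels give no hour of killing. With this score as a covariate, 9 of the probe sets were called for the difference and 47 for the virgin response, in place of 15 and 2163 (9.24%). The score is built from genes of these same arrays and separates virgin ZnO from untreated virgin mice. As a covariate it therefore also takes up the treatment difference itself. The drop in calls cannot tell what part the clock has in the results, which was not tested.

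**Figure D4:**
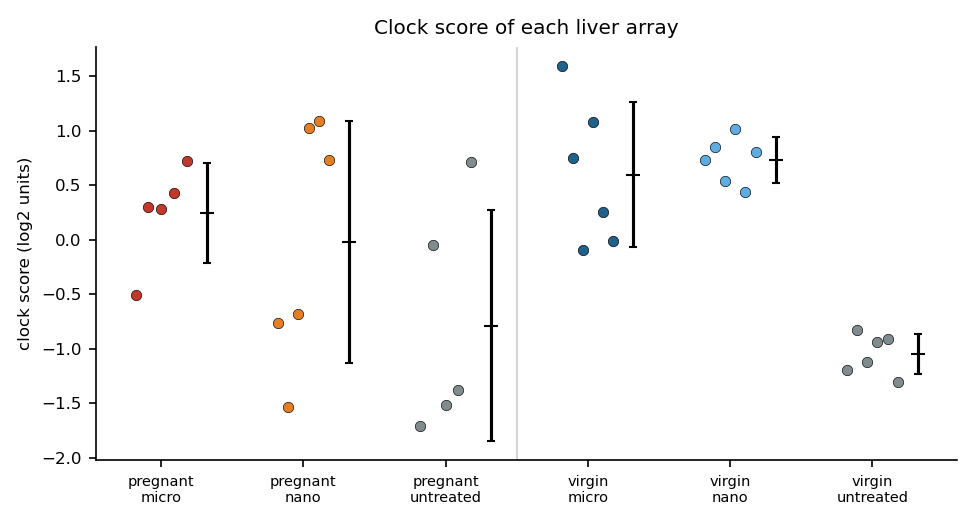
Clock score of each mouse in log2 units, 1 point per array, with the mean and SD of each arm as a bar, for micro ZnO, nano ZnO and untreated arms of pregnant (left of the grey line) and virgin mice. Pregnant mice of all arms spread from -1.71 to 1.09, and all virgin ZnO mice lie above the untreated virgin mice.

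Cholesterol synthesis genes rose in virgin mice. Of 20 measured, 0 were called in pregnant mice (0.276% of all genes rose) and 9 rose in virgin mice (4.15% of all genes rose), with median responses of 0.09 in pregnant and 0.31 in virgin mice. None (0) had a called difference, and 6 had a negative one at an unadjusted p under 0.05 (744 of all 19938 genes). Of the 20 differences 1 was positive (9511 of all 19938), and their median was -0.28, or -0.16 with the clock score as a covariate. Sqle, the squalene epoxidase, had a pregnant response of 0.28, rose by 0.85 in virgin mice (limma adjusted p = 0.000350), and had a difference of -0.57 (adjusted p = 0.492). Glucocorticoid-responsive genes rose in 2 of 20 cases in pregnant and 10 of 20 in virgin mice, where 0.276% and 4.15% of all genes rose. They had 0 called differences and 3 at an unadjusted p under 0.05 (1566 of all 19938 genes). The mean log2 signal of this list had a median of 8.56 with formulation, 8.33 with ZnO and 7.85 untreated in pregnant mice. In virgin mice these medians were 9.02, 8.89 and 8.20, so they were no lower with the base alone than with ZnO.

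Of 17 measured neutrophil markers, 6 rose in pregnant mice, where 0.276% of all genes rose, and 1 in virgin mice, near the 4.15% of all genes that rose there. All 17 differences were positive (9511 of all 19938 genes), with a median of 0.55 and 0 called. At an unadjusted p under 0.05, 8 were positive (822 of all 19938 genes). S100a8, a calprotectin subunit of neutrophils, rose by 1.84 in pregnant mice (limma adjusted p = 0.0021), had a virgin response of 0.63 (adjusted p = 0.183), and differed by 1.21 ± 0.45 (adjusted p = 0.472). The mean log2 signal of the list ran from 4.76 to 6.33 in the pregnant ZnO mice and from 4.34 to 4.69 in the untreated pregnant mice. It ran from 4.26 to 5.49 in the virgin ZnO mice and from 4.21 to 4.36 in the untreated virgin mice. Without pregnant micro ZnO replicates 3 and 4, 4 of the markers rose in pregnant and 2 in virgin mice, 14 differences were positive, 4 of them at an unadjusted p under 0.05, and the median difference was 0.31. Ly6g, a defining neutrophil marker, was dim throughout, at percentile 23.8 of the array in the pregnant ZnO and 16.4 in the untreated pregnant mice.

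Of 18 Kupffer cell and macrophage markers, 0 were called in pregnant mice, where 0.466% of all genes were. In virgin mice 2 fell, where 5.01% of all genes fell. The pregnant response was positive in 14 of the 18 (10830 of all 19938 genes), with a median of 0.20. At an unadjusted p under 0.05, 10 differences were positive (822 of all 19938 genes), and 0 were called. The median difference was 0.45, with 16 positive (9511 of all 19938 genes). Without pregnant micro ZnO replicates 3 and 4 it was 0.37, with 15 positive and 7 at an unadjusted p under 0.05. The list's mean signal ran from 5.83 to 6.85 in the pregnant ZnO mice, against 5.83 to 6.07 untreated, and from 5.90 to 6.59 in the virgin ZnO mice, against 6.23 to 6.70 untreated. The members with the smallest p for the difference were Mpeg1, Cd68, Ccr2 and Folr2, at 0.92, 0.53, 0.44 and 0.45. Their responses were 0.77, 0.09, 0.37 and 0.12 in pregnant and -0.16, -0.44, -0.07 and -0.33 in virgin mice. Clec4f, which defines resident Kupffer cells, had responses of -0.10 in pregnant and -0.20 in virgin mice, neither called, and a difference of 0.11. Of 26 interferon-stimulated genes 23 differences were positive (9511 of all 19938 genes), with a median of 0.38 and 0 called. At an unadjusted p under 0.05, 10 were positive (822 of all 19938 genes). Without those 2 replicates the median was 0.21, with 19 positive and 7 at an unadjusted p under 0.05. Ly6e is not a member of that list. The part of these cells in the called differences was not tested. Of 12 hepatocyte markers 0 were called for the difference (0 also at an unadjusted p under 0.05), with a median of -0.02.

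**Figure D5:**
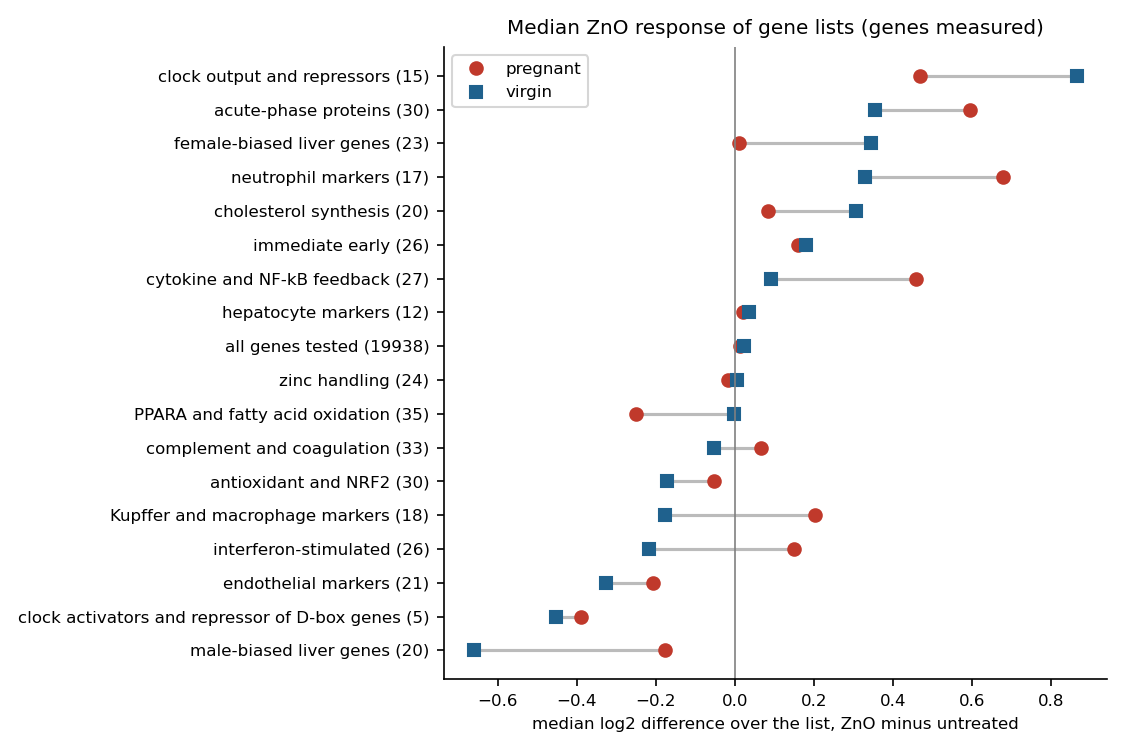
Median log2 response to ZnO over the measured genes of each list, in pregnant mice (red circles) and virgin mice (blue squares), with the number of genes in parentheses. Male-biased genes lie at -0.18 in pregnant and -0.66 in virgin mice, neutrophil markers at 0.68 and 0.33, and all genes together near 0.

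The pregnant response had fewer called genes than the virgin response when all arrays were fitted without a covariate. In pregnant mice 93 genes were called (0.466%), 55 higher and 38 lower, and in virgin mice 1825 (9.15%), 827 higher and 998 lower. The experiments share no arrays. Of the 93 genes called in pregnant mice, 83 (89.2%) had the same sign in virgin mice and 35 (37.6%) were also called there in that direction. Of the 1825 called in virgin mice, 1562 (85.6%) had the same sign in pregnant mice and 35 (1.92%) were also called in that direction. The genes called in pregnant mice had a median size of 0.551 there and 0.234, in the same direction, in virgin mice. Those called in virgin mice had a median of 0.124, in their own direction, in pregnant mice and 0.307 in virgin mice, so a list chosen in 1 experiment had smaller values in the other both ways round. Over all 19938 genes, which are not independent of each other, the 2 responses had the same sign in 65.9% and a Pearson correlation of 0.505. As probe sets, 110 were called in pregnant mice (0.47%), and this count ran from 38 without untreated replicate 4 to 364 without micro ZnO replicate 1. Without micro ZnO replicates 3 and 4 it was 38, with 33 higher and 5 lower. With the clock score as a covariate 45 probe sets were called in pregnant and 47 in virgin mice. In virgin mice that score separates ZnO from untreated, so the covariate takes up treatment difference as well.

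The values with each particle size are a description, since the genes were chosen on the mean of both sizes and the comparisons share the untreated arrays. For micro ZnO 10 genes (0.0502%) and for nano ZnO 10 genes (0.0502%) were called. The difference for Slc39a4 was 1.03 with micro ZnO (limma adjusted p = 0.00308), and 0.93 with nano ZnO (adjusted p = 0.00405). Ntrk2 differed by 0.85 and 0.98, Serpinb1a by 1.42 and 1.42, and Ly6e by 1.06 and 0.94, all called with both sizes. For Cyp4a14 it was -2.37 with micro particles (adjusted p = 0.0265) against -1.70 with nano particles (adjusted p = 0.337), and for Slc10a2 1.48 (adjusted p = 0.127) against 2.06 (adjusted p = 0.00405).

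The test of the size effect itself, nano minus micro ZnO in pregnant minus virgin mice, called 0 of 23410 probe sets (0.0%) with limma, with 890 (3.80%) at an unadjusted p under 0.05. Its value was -0.10 for Slc39a4 (95% interval -0.43 to 0.22), 0.13 for Ntrk2 (-0.17 to 0.42) and 0.59 for Slc10a2 (-0.12 to 1.30), and the intervals allow differences by size up to those bounds. The interval lay away from 0 for Saa3, at -1.83 (-3.42 to -0.24), and for A1bg, a female-biased plasma protein gene, at 1.54 (0.64 to 2.44). Neither passed the adjusted threshold, and the smallest adjusted p of this limma test over all probe sets was 0.9998. The highest Saa3 values were those of pregnant micro ZnO replicates 3 and 4. A1bg was called with nano ZnO, by 2.51 (adjusted p = 0.00522), and not with micro ZnO, by 0.97 (adjusted p = 0.640), which is not itself a test of size.

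Set against the sunscreen base, other genes came forward. In this comparison 38 genes (0.191%) were called, 18 positive and 20 negative. Immediate early genes, which respond within minutes to growth factors and stress, took 8 of the positive calls among 26 measured, where 0.0903% of all genes were called positive, with a list median of 0.70. Jun, a subunit of AP-1, had 5.28, 6.23 and 7.11 at the lowest, median and highest of the pregnant ZnO mice, against 5.12, 5.55 and 5.79 in the pregnant formulation mice. Values in virgin ZnO mice were 5.82, 6.69 and 8.60, against 8.44, 8.92 and 9.27 in the virgin formulation mice and 5.75, 6.07 and 6.71 in the untreated virgin mice. The virgin formulation arm was thus the one that stood high. Jun differed by 2.54 ± 0.37 (limma adjusted p = 0.000205).

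Fos, the partner of Jun in AP-1, had 4.46, 4.78 and 5.42 at the lowest, median and highest of the pregnant ZnO mice, against 4.50, 4.76 and 5.17 in the pregnant formulation mice. In virgin mice it had 4.86, 5.71 and 6.72 with ZnO, against 5.91, 7.71 and 8.45 with formulation, again with the virgin formulation arm high. It differed by 1.93 ± 0.32 (limma adjusted p = 0.00227). Btg2, an antiproliferative early gene, differed by 1.99 (adjusted p = 0.00708), Egr1, a zinc finger early gene, by 2.03 (adjusted p = 0.0487), and Igfbp1, an insulin-like growth factor binding protein induced by fasting and stress, by 2.24 (adjusted p = 0.0385). Against untreated, the immediate early list had 0 called differences and a median of -0.04. It had 3 differences at an unadjusted p under 0.05 (1566 of all 19938 genes). Among the negative calls were Hsd3b2, a steroid dehydrogenase, at -1.18 (adjusted p = 0.0385), Cyp2c38, a cytochrome P450, at -1.07 (adjusted p = 0.0470), Bbox1, the last enzyme of carnitine synthesis, at -0.84 (adjusted p = 0.0379), Meiob at -1.18 (adjusted p = 0.0306) and Hsf2, a heat shock transcription factor, at -0.76 (adjusted p = 0.0379). The number of probe sets called, 61 (0.261%), ran from 11 to 129 as single arrays were left out, 11 without pregnant formulation replicate 5 and 129 without pregnant micro ZnO replicate 1, and was 18 without pregnant micro ZnO replicates 3 and 4. Jun, Fos and Btg2 kept their call in all 35 fits without 1 array and in all 11 alternatives. Egr1 lost it in 22 of those fits and in 7 alternatives, Cyp2c38 in 21 and 5, Hsd3b2 in 12 and 5, Igfbp1 in 11 and 4, Hsf2 in 10 and 4, Bbox1 in 6 and 4, and Meiob in 3 and 2.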

How the data were processed

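Liver RNA of 46 mice was measured on Affymetrix whole-transcript arrays, 1 per mouse. The authors deposited log2 intensities from RMA, named without a version in the submitters' processing notes. RMA corrects background, normalizes quantiles and sums probes into probe sets. They ran from 0.555 to 14.6. Whether the experiments were normalized together is not given in the sources used here. All 46 columns were used, and no pair of arrays was identical (0).

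Of 35512 probe sets, 21789 had 1 gene symbol, 1621 several and 12102 none. The 23410 with a symbol were tested, and Entrez identifiers of 21698 matched RefSeq (GRCm38.p6), which changed 0 symbols. A gene was represented by its probe set with the highest mean.

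All 46 arrays were fitted in 8 groups with limma 3.58.1 (lmFit, contrasts.fit, eBayes) in R 4.3.3, with 38 residual degrees of freedom. All tests were two-sided. P-values were adjusted by Benjamini-Hochberg over all 23410 probe sets per comparison, and calls were made below an adjusted p of 0.05. Errors of log2 differences are SE and those of groups SD. Intervals are 95% and the number of arrays limits them. Array measures were compared with exact permutation tests in scipy 1.17.1 (Python 3.11.15, numpy 2.4.6, pandas 2.3.3), and plots made in matplotlib 3.10.9. On simulated data for the difference of responses, 60 of 100 probe sets changed 1.5-fold and 95 of 100 changed 2-fold were found, with 7 false calls among 23410 probe sets. The simulation drew independent normal noise with 1 spread per probe set for both experiments. It held no arrays that lie apart, such as pregnant micro ZnO replicates 3 and 4, so these rates need not hold for the real arrays.

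The members, comparisons, alternatives and 34 gene lists were chosen with earlier results of these data known. Named genes are the called ones (up to 15 each way) and the 5 smallest p for the difference, the 5 largest each way of the other comparisons, up to 4 members of a described list with the smallest p, and always Mt1, Mt2, Slc30a1, Slc30a10, Slc39a4, Slc39a14, Saa1, Saa2, Orm2 and Slco1a1. The text prints part of them. Clec4f, Ly6g and albumin fall outside this rule and were chosen as defining markers after their values were seen. Alternatives were the 34 untreated and ZnO arrays alone, dim probe sets left out (mean below the 40th percentile in both experiments), all probe sets, an intensity trend with robust moderation, array weights, a variance weight per experiment, further quantile normalization within or across experiments, a replicate block, a covariate per array (interquartile range or clock score), pregnant micro ZnO replicates 3 and 4 left out, and each array left out in turn.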

Additional observations from a re-analysis of the deposited data

Results flagged for a closer look

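The ZnO response differed between pregnant and virgin mice, by the limma test of the difference itself, for Slc39a4 (0.98), Slc39a11 (0.38), Ntrk2 (0.92), Serpinb1a (1.42), Slc10a2 (1.77), Ly6e (1.00), Cyp2a22 (-1.80), Cyp4a14 (-2.04), Elovl3 (1.19), Gstm6 (0.89), Apoa4 (0.65), Nim1k (-0.49), Plekhb1 (0.63) and P2ry10b (0.49), and for a probe set of several histone genes (0.42), all in log2 units. Against the sunscreen base, the particle response differed for Jun (2.54), Igfbp1 (2.24), Egr1 (2.03), Btg2 (1.99), Fos (1.93), Meiob (-1.18), Hsd3b2 (-1.18), Cyp2c38 (-1.07), Bbox1 (-0.84) and Hsf2 (-0.76). For the immediate early list it was the virgin formulation arm that stood high, at a median signal of 6.86, against 6.12 with ZnO and 5.86 untreated in virgin mice.

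Single mice lay far from the others of their arm in 6 of 126 sets of values tested with Dixon's criterion (4.76%), and chance gives about 1 in 20. Pregnant untreated replicate 4 was low for Ly6e, at 9.34 beside a nearest value of 9.86, and for Saa1, at 5.20 beside 6.74. Virgin nano ZnO replicate 4 was high for Cyp4a14, at 10.73 beside 8.90. Pregnant nano ZnO replicate 1 was low for Gstm6, at 6.29 beside 6.51, replicate 3 low for P2ry10b, at 1.93 beside 2.14, and replicate 2 had the widest interquartile range of its arm, 3.23 beside 3.14. Ly6e kept its call without each of these arrays in turn. Cyp4a14 kept its call without virgin nano ZnO replicate 4, Gstm6 without pregnant nano ZnO replicate 1 and P2ry10b without pregnant nano ZnO replicate 3, and their losses came without other arrays.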

How the results depend on the processing

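The 14 called genes kept their direction in every alternative run, and calls and counts moved. The difference of responses had 15 probe sets called, then 7 with the interquartile range as covariate, 9 with the clock score, 36 without pregnant micro ZnO replicates 3 and 4, and 7 to 27 with 1 array left out. It fell below 10 without pregnant untreated replicate 2 (7) or 4 (9), virgin untreated replicate 3 (8), 1 or 4 (9 each) or virgin nano ZnO replicate 4 (9), and rose without pregnant micro ZnO replicate 5 (27) or pregnant nano ZnO replicate 4 (23). Over 12 alternatives (11 for Ntrk2 and P2ry10b) 5 of the 14 genes kept their call throughout, Slc39a11 lost it in 7, Cyp4a14, Elovl3, Gstm6 and Plekhb1 in 5 each, P2ry10b in 3, Nim1k in 2, Apoa4 in 1 and Slc10a2 in 1, with the interquartile range (1.515, adjusted p = 0.0597). The pregnant response had 110 called, and 63 from the 34 arrays alone, 189 without dim probe sets, 62 over all probe sets, 53 with array weights, 59 with a variance weight per experiment, 73 with the interquartile range, 45 with the clock score, 38 without micro ZnO replicates 3 and 4, and 38 to 364 with 1 array left out. Its largest shifts came without micro ZnO replicate 1 (364), 2 (320), 3 (57), 4 (50) or 5 (188), nano ZnO replicate 2 (191) and untreated replicate 1 (45), 3 (52), 4 (38) or 5 (169). The virgin response had 2163 called, and 3719 with array weights, 1412 after further quantile normalization within experiments, 581 with the interquartile range, 47 with the clock score, and 874 to 2581 with 1 array left out (untreated replicate 1 874, 3 1376, 4 1263, 5 1330). Against formulation 61 were called, and 133 without dim probe sets, 32 over all probe sets, 105 and 133 after quantile normalization within and across experiments, 164 with the interquartile range, 109 with the clock score, 18 without micro ZnO replicates 3 and 4, and 11 to 129 with 1 array left out. There the count was 14, 15 and 29 without virgin formulation replicate 1, 5 or 6, 27, 35, 11 and 24 without pregnant formulation replicate 2, 4, 5 or 6, 35 and 24 without virgin micro ZnO replicate 1 or 2, 25 and 19 without virgin nano ZnO replicate 1 or 6, 129, 121, 39, 22 and 92 without pregnant micro ZnO replicates 1 to 5, and 25 and 102 without pregnant nano ZnO replicate 1 or 2. For micro ZnO 11 were called, and 6 from the 34 arrays alone, 5 over all probe sets, 4 with the interquartile range, 5 with the clock score, 6 without replicates 3 and 4, and 5 to 49 with 1 array left out (virgin micro ZnO replicate 1 5; pregnant micro ZnO replicate 1 49, 2 23, 3 6, 4 5, 5 46; pregnant untreated replicate 1 6, 2 6, 4 7). For nano ZnO 10 were called, and 7 to 11 with 1 array left out. The size effect had 0 called in every alternative run.

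Replicate numbers gave little sign of pairing ZnO with untreated mice: 22 such pairs of same-numbered arrays had correlations of -0.35 to 0.20, with 4 above 0.1. Other pairs of arms were not checked, so a pairing or batch by number is not excluded. With the replicate block the counts were 12 for the difference of responses, 73 for the pregnant response, 15 against formulation and 6 for nano ZnO.

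Reversed signs were near 0 and uncalled in the values reported: Slc30a10 with the clock score (-0.088), Arntl with the clock score (-0.113), Saa2 and Orm2 without micro ZnO replicates 3 and 4 (-0.0335 and -0.0107), and Slc39a14 with the interquartile range (-0.0468), after joint quantile normalization (-0.00379) and without those replicates (-0.0688). With 1 array left out Slc39a14 ran from -0.16 to 0.17 and Orm2 from -0.026 to 0.34. For single genes 2579 comparisons with an alternative kept direction and side of the threshold, 230 lost and 27 gained a call. The causes were not tested. Signal over background was not analysed here, so dim probe sets carry an unknown floor.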

Other observations

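C6 and C8b, complement components, missed the threshold for the difference. C6 had responses of 0.28 in pregnant and -0.48 in virgin mice and a difference of 0.76 ± 0.17 (limma adjusted p = 0.0634), and C8b 0.37 and -0.25 and a difference of 0.63 ± 0.14 (adjusted p = 0.0634). Of 33 complement and coagulation genes 0 had a called difference, and the median was 0.12. At an unadjusted p under 0.05, 9 had a positive and 0 a negative difference (822 and 744 of all 19938 genes). Of 28 chaperones and sensors of the endoplasmic reticulum 0 were called in pregnant mice, where 0.466% of all genes were, and 9 fell and 1 rose in virgin mice, where 5.01% of all genes fell and 4.15% rose. The median difference was 0.19.

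Of 21 endothelial markers 1 fell in pregnant and 8 in virgin mice, where 0.191% and 5.01% of all genes fell, with median responses of -0.21 and -0.33. Cdh5, which encodes VE-cadherin, had a response of -0.11 in pregnant mice and fell by 0.48 in virgin mice (limma adjusted p = 0.000437), with a difference of 0.37 (adjusted p = 0.411). Of 35 PPARA and fatty acid oxidation genes, 1 fell in pregnant mice, and 1 rose and 4 fell in virgin mice. Of all genes 0.191% fell in pregnant mice, and 4.15% rose and 5.01% fell in virgin mice. At an unadjusted p under 0.05, 19 of the 35 were lower and 1 higher in pregnant mice (1308 and 1390 of all 19938 genes). In virgin mice 11 were lower and 4 higher at that level (2404 and 2838 of all 19938 genes). For the difference between the responses 1 of the 35 was called, with a negative value (3 of all 19938 genes). At an unadjusted p under 0.05, 10 differences were negative and 0 positive (744 and 822 of all 19938 genes). Of the 35 differences 7 were positive (9511 of all 19938 genes), with a median of -0.13. Markers of cholangiocytes, lymphocytes, stellate cells, erythroid cells and adipose tissue or pancreas had 0 called differences among 7, 16, 15, 8 and 9 measured genes. At an unadjusted p under 0.05 there were 2, 1, 2, 1 and 1 (1566 of all 19938 genes).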
